A study of Bos taurus with 54 samples.

Results

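A set of 10 genes that govern how cells store fat in lipid droplets and release it was followed through an acute heat challenge in calf blood, out of 32637 genes counted in each library. They are G0S2, HILPDA, PNPLA2, ABHD5, LIPE, PLIN2, PLIN3, ANGPTL4, CPT1A and PDK4, each taken by its symbol from the count files. The genes were chosen with the heat stress contrast of these libraries already known, so their values in that contrast are given as a description, and no p-value of a member is printed for it. How many members passed the threshold there is printed beside the same share of all genes. Tests of members are kept to the levels before heat in both kits and both sample runs, and to differences between kits and between runs, while genes that are not members are tested in the heat stress contrast too.

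Triacylglycerol in a lipid droplet is broken down in steps. Adipose triglyceride lipase, encoded by PNPLA2, removes the first fatty acid with the help of its co-activator ABHD5, and hormone-sensitive lipase, encoded by LIPE, acts on the diacylglycerol that remains. G0S2 and HILPDA are small proteins that bind and inhibit adipose triglyceride lipase, while PLIN2 and PLIN3 coat the droplet surface. CPT1A admits long-chain fatty acids to the mitochondrion, PDK4 turns down pyruvate dehydrogenase and so the use of glucose, and ANGPTL4 is a secreted inhibitor of lipoprotein lipase. In leukocytes, lipid droplets are known as stores for the fatty acids from which lipid mediators are made.

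Blood came from 15 Holstein male calves kept in climate control rooms. The draw before heat is labelled 6AM (thermoneutral control) and the draw after 12 h of heat 6PM (heat stress), so the effects of heat and of time of day cannot be told apart. Red cells were lysed before RNA extraction, and the 29 RNA samples gave 54 libraries, 27 of them with SMART-Seq v4 3′ DE from Takara and the other 27 with QuantSeq 3′ from Lexogen, kits that both read the 3′ end of mRNA. The age of the calves and the temperature of the rooms are not given in the sources used here. The time of animal 20 differed between sources and its libraries were left out, which gave 13 control and 13 heat stress libraries and 12 animals with both times in each kit. Sample numbers fell into run 1 (8 animals) and run 2 (7 animals), treated here as a possible batch.

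Reads on genes ranged from 5140595 to 20699030 in Takara and from 4516761 to 58521751 in Lexogen, the deepest being the Lexogen heat stress library of animal 15. Levels are CPM, the reads of a gene per 1e+06 reads on genes after TMM scaling, and are compared between libraries and not between genes. CXCR2 of neutrophils and CD3E of T cells had reads in every library, at means of 927 and 141 CPM in Takara. Of the adipocyte markers, LEP had no read in either kit, FABP4 had 1 read in Takara and none in Lexogen, and ADIPOQ had 8 and 2 reads. PLIN1, the droplet coat gene of adipocytes, had 339 reads in Takara, with some in every library, and 150 in Lexogen, where 23 of 26 libraries had 0. CFD, also listed with adipocytes, had a mean of 4291 CPM in Takara and 263 CPM in Lexogen. In such bulk samples, fewer cells of a type and less RNA per cell cannot be told apart.

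Among the lipase inhibitors, G0S2 (chr16:73640793-73641725 on ARS-UCD2.0) had the largest fitted difference between times of the 8 members that could be tested, in both kits. In Takara, control libraries ranged from 3.65 to 27.4 CPM with a median of 9.45, and heat stress libraries from 2.68 to 625 CPM with a median of 49.6. The groups overlapped, because the heat stress libraries split into 6 from 390 to 625 CPM (animals 7, 15, 16, 18, 36 and 40) and 7 from 2.68 to 49.6 CPM, with none in between. The fitted log2 fold change was 4.42 with a standard error (SE) of 0.71, and 11 of 12 animals were higher in heat stress, animal 3 being the exception. With the animal as a replicate block the log2 fold change was 3.27 (SE 0.82).

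G0S2 showed the same split in Lexogen. Control libraries ranged from 0.49 to 14.3 CPM with a median of 4.06, and heat stress libraries from 1.53 to 464 CPM with a median of 29.5. The 5 highest heat stress libraries, at 237 to 464 CPM, came from animals 15, 16, 18, 36 and 40, and the other 8 were at 35.2 CPM or below. All 5 of these animals were also in the high set of Takara, and animal 7, the remaining animal of that set, had no Lexogen heat stress library. The log2 fold change was 4.70 (SE 0.74), and 3.07 (SE 0.75) with the animal as a block. G0S2 was higher in heat stress in 9 of 12 animals.

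**Figure D1:**
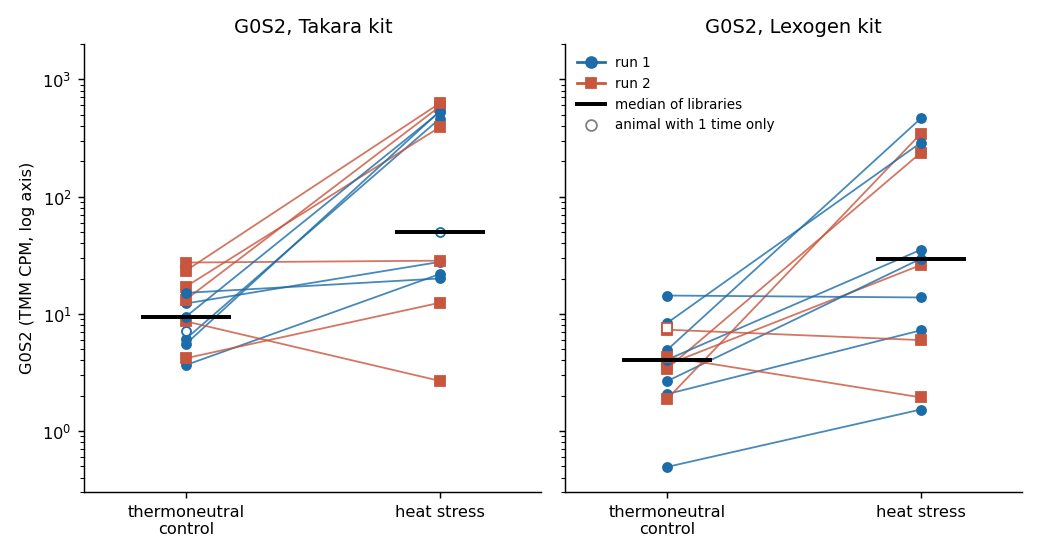
Level of G0S2 in each library (TMM CPM, log axis) at thermoneutral control and heat stress, in Takara (left) and Lexogen (right), with a line for each animal that has both times, colours for the 2 runs and black bars for the median of the libraries. In Takara 6 heat stress libraries sit between 390 and 625 CPM and the other 7 at 49.6 CPM or below, and animals of both runs are found in each set.

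Control libraries held 28 to 337 G0S2 reads in Takara and 5 to 161 in Lexogen. Heat stress libraries held 32 to 8028 and 16 to 11355 reads, the last in the deepest library, so the lowest heat stress libraries lay within the range of the control reads. All but 6 of the G0S2 reads assigned by strand lay on the sense strand. The other inhibitor, HILPDA (chr4:92647984-92650046), which hypoxia induces in many cell types, had 17 reads over the 26 Takara libraries and 32 over the 26 Lexogen libraries. It did not pass the filter on low counts in either kit. Of the 32 Lexogen reads, 28 lay on the strand opposite to the gene and came from 2 control libraries, with 17 and 11 reads, and its heat stress libraries held 0 reads in Lexogen and at most 2 in Takara.

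Among the lipases and their co-activator, levels were higher in heat stress in most animals, by far less than G0S2. PNPLA2 (chr29:50548339-50553115) ranged from 3.39 to 8.06 CPM (median 5.497) in Takara control libraries and from 2.40 to 19.5 CPM (median 7.83) in heat stress. Here 6 of 13 heat stress libraries were above every control library and 1, of animal 18, was below all of them. The log2 fold change was 0.73 (SE 0.23), with 9 of 12 animals higher. In Lexogen, PNPLA2 ranged from 1.19 to 8.90 CPM (median 7.06) in control and from 2.48 to 64.7 CPM (median 8.22) in heat stress, with a log2 fold change of 1.31 (SE 0.46) and 7 of 12 animals higher. With the animal as a block the log2 fold change of PNPLA2 was 0.49 (SE 0.24) in Takara and 0.78 (SE 0.58) in Lexogen. The highest Lexogen level, of animal 12, stood against 7.07 CPM in the Takara library of the same RNA.

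LIPE (chr18:50886651-50907201) ranged from 4.95 to 16.8 CPM (median 12.5) in Takara control libraries and from 10.7 to 46.2 CPM (median 19.98) in heat stress. In all, 8 heat stress libraries were above all controls, 5 of the control libraries were below all of heat stress, and 11 of 12 animals were higher, animal 18 again being the exception. Its log2 fold change was 0.97 (SE 0.23) in Takara. In Lexogen, LIPE ranged from 0.20 to 9.06 CPM (median 4.09) in control and from 0 to 40.2 CPM (median 12.2) in heat stress, with a log2 fold change of 1.58 (SE 0.62) and 10 of 12 animals higher. Its 2 Lexogen heat stress libraries without a read came from animals 18 and 23.

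ABHD5 (chr22:15584972-15646850) had the smallest fitted difference of the 3 in Takara. Its fitted difference was larger in run 1 than in run 2 in both kits, but the test of that interaction, given below, did not pass the threshold. Its control libraries ranged from 20.8 to 51.1 CPM (median 32.8) and its heat stress libraries from 28.6 to 62.9 CPM (median 45.4) in Takara, with a log2 fold change of 0.40 (SE 0.15). In Lexogen they ranged from 5.98 to 34.9 CPM (median 23.6) and from 16.6 to 60.0 CPM (median 29.3), with a log2 fold change of 0.55 (SE 0.26). The groups overlapped in both kits. All 6 animals of run 1 were higher in Takara, with a log2 fold change of 0.76 (SE 0.15) within that run, against 4 of 6 animals and 0.03 (SE 0.21) in run 2. In Lexogen the within-run values were 0.88 (SE 0.38) and -0.01 (SE 0.35).

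The droplet coat gene PLIN2 (chr8:25117164-25131174) had the largest Takara difference after G0S2 among the members. Control libraries ranged from 19.6 to 66.9 CPM (median 47.5) in Takara and heat stress libraries from 24.3 to 337 CPM (median 78.3). The 6 heat stress libraries at 127 to 337 CPM were those of the 6 animals with high G0S2, and the other 7 were at 78.3 CPM or below. The log2 fold change was 1.69 (SE 0.33), with 10 of 12 animals higher. In Lexogen, PLIN2 ranged from 16.02 to 80.6 CPM (median 38.1) in control and from 20.3 to 226 CPM (median 82.7) in heat stress, with a log2 fold change of 1.09 (SE 0.32) and again 10 of 12 animals higher. Within run 1 and run 2 the log2 fold change was 1.52 (SE 0.37) and 1.92 (SE 0.54) in Takara. In Lexogen it was 1.43 (SE 0.37) and 0.42 (SE 0.48), with 7 of 7 and 3 of 5 animals higher. The animals with high G0S2 were at 79.9 to 226 CPM there and the other 8 at 20.3 to 89.8 CPM, so that in Lexogen the sets overlapped for PLIN2.

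PLIN3 (chr7:19291365-19311906), the coat protein that also stands in the cytosol, was measured very differently by the kits. In Takara it ranged from 7.01 to 16.04 CPM (median 12.9) in control and from 11.5 to 71.0 CPM (median 18.0) in heat stress, with 9 of 13 heat stress libraries above all controls and a log2 fold change of 1.13 (SE 0.25). In Lexogen it ranged from 0.49 to 64.6 CPM (median 3.04) in control and from 0 to 31.4 CPM (median 4.62) in heat stress. The Lexogen median was thus higher in heat stress while the fitted log2 fold change was -0.37 (SE 0.71), and with the animal as a block it was 0.19 (SE 0.81). The 2 highest Lexogen control libraries, of animals 19 and 16, held 64.6 and 24.04 CPM against 15.3 and 7.91 CPM in Takara. Reads on the opposite strand made up 27.6% of the PLIN3 reads of Lexogen and 0.457% of those of Takara, and their part in the difference was not tested.

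ANGPTL4 (chr7:17005585-17012655) was barely read. It had 144 reads in all Takara libraries, between 0 and 1.21 CPM per library, and 5 of 12 animals were higher in heat stress. Lexogen held 7 reads, all in 1 heat stress library, and 0 in each of the 13 controls, where a count of 0 allows 0.206 to 0.502 CPM depending on depth, counting error only. The gene LOC132345705 overlaps it, and the sense-strand counts of ANGPTL4, 215 in Takara and 13 in Lexogen, were larger than the unstranded ones. It did not pass the filter on low counts in either kit, as for HILPDA, so 8 of the 10 members entered the fits.

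Of the genes for the use of fatty acids, PDK4 differed between times and CPT1A differed little. PDK4 (chr4:12881889-12895362) ranged from 2.40 to 23.1 CPM (median 6.12) in Takara control libraries and from 6.29 to 24.2 CPM (median 15.0) in heat stress, with 8 of 13 controls below every heat stress library. The log2 fold change was 1.03 (SE 0.25), and 11 of 12 animals were higher, animal 41 having the highest control level and a lower heat stress level. In Lexogen, PDK4 ranged from 6.19 to 31.1 CPM (median 15.7) in control and from 12.9 to 52.3 CPM (median 25.6) in heat stress, with a log2 fold change of 0.86 (SE 0.30) and 9 of 12 animals higher. The highest heat stress level of PDK4 in Takara was in animals 3 and 16, and animal 3 had the lowest heat stress level of G0S2 there.

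CPT1A (chr29:46164801-46225372) ranged from 11.2 to 43.6 CPM (median 20.4) in Takara control libraries and from 13.1 to 46.01 CPM (median 31.2) in heat stress, with a log2 fold change of 0.35 (SE 0.19). In Lexogen it ranged from 8.77 to 63.3 CPM (median 27.1) in control and from 8.17 to 35.8 CPM (median 24.8) in heat stress, with a log2 fold change of -0.20 (SE 0.28). The groups overlapped almost wholly in both kits, and 9 of 12 Takara animals and 6 of 12 Lexogen animals were higher. All 6 Takara animals of run 2 were higher and 3 of 6 of run 1.

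**Figure D2:**
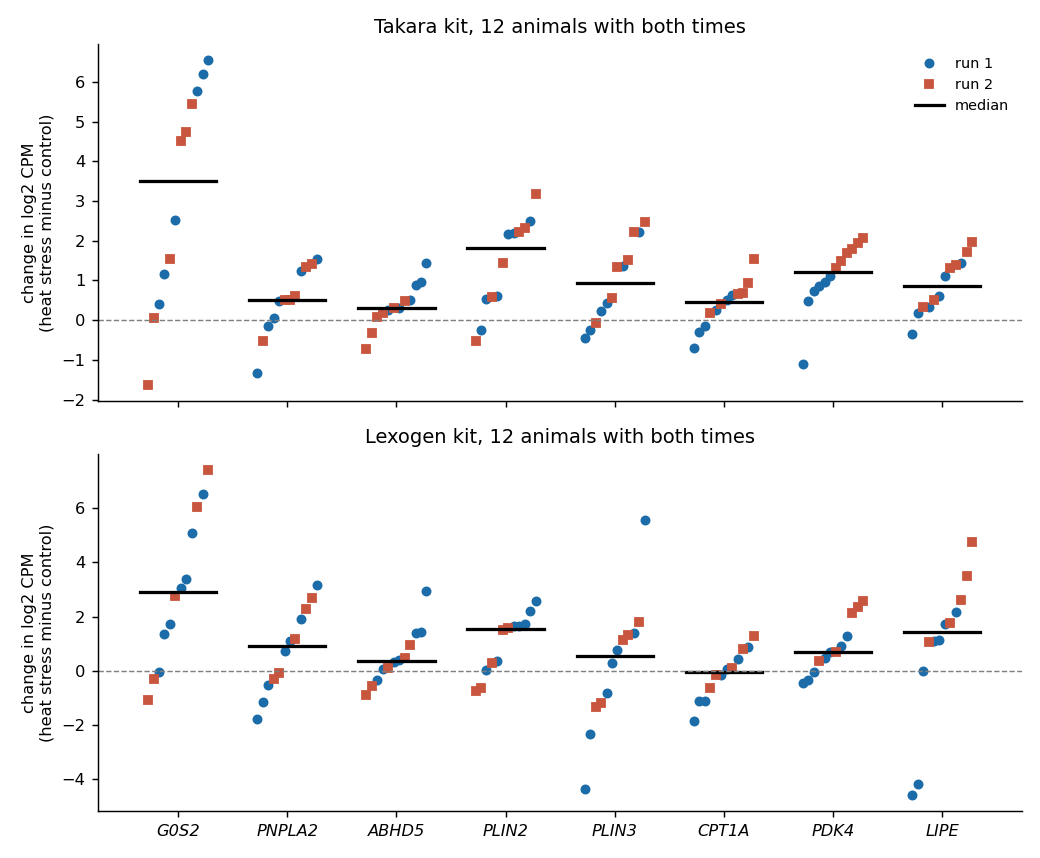
Change in log2 CPM between thermoneutral control and heat stress of each of the 12 animals with both times, for the 8 tested members, in Takara (top) and Lexogen (bottom), with points coloured by run and black bars for the median. The Takara changes of G0S2 run from -1.62 to 6.55 with a median of 3.51, while the medians of the other members lie between 0.31 (ABHD5) and 1.81 (PLIN2).

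At an adjusted p under 0.05 (quasi-likelihood test of edgeR, Benjamini-Hochberg over all genes tested), 7 of the 8 tested members were called higher in Takara, all but CPT1A, where 18.4% of the 12620 genes tested were called higher. In Lexogen, G0S2 and PLIN2 were called higher, 2 of 8, where 5.09% of 11108 genes were. No member was called lower in either kit, against 10.5% of genes in Takara and 0.459% in Lexogen. Because the members were chosen from this contrast, nothing is read from these counts. With the animal as a block, 5 members were called in Takara (14.9% of genes), where ABHD5 and PNPLA2 were not. In Lexogen 0 were (0.415% of genes), where 3 members had an unadjusted p under 0.05. DESeq2 without the block called 4 there, beside 816 of 21596 genes higher. The same animals without the block also gave 5 in Takara, beside 2136 of 12651 genes higher. They gave 2 in Lexogen, beside 407 of 11087 genes higher. Within run 1, 3 members were called higher in Takara (14.7% of genes) and 2 in Lexogen (3.29%), and within run 2, 5 in Takara (4.80%) and 0 in Lexogen, where edgeR called 0% of 11459 genes and 2 members had an unadjusted p under 0.05.

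In all, 3646 genes were called in Takara, 2325 higher and 1321 lower, and 616 in Lexogen, 565 higher and 51 lower. With total counts as the library size in place of TMM, the higher share of the Takara calls went from 63.8% to 37.4%, and the median log2 fold change of all genes shifted by -0.22. The members kept their sign under that scaling in both kits, but ABHD5 went to 0.13 and CPT1A to 0.11 in Takara, and PNPLA2 and ABHD5 were no longer called, which left 5 members beside 1303 of 12620 genes. In Lexogen PLIN2 was no longer called, at 0.99, which left 1 member beside 437 of 11108 genes. The Takara values with total counts were also set against the median of all genes on the log2 scale. Relative to it, G0S2 was at 4.22, PLIN2 at 1.55, PDK4 at 1.07, PLIN3 at 1.03, LIPE at 0.90, PNPLA2 at 0.72, ABHD5 at 0.40 and CPT1A at 0.38.

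**Figure D3:**
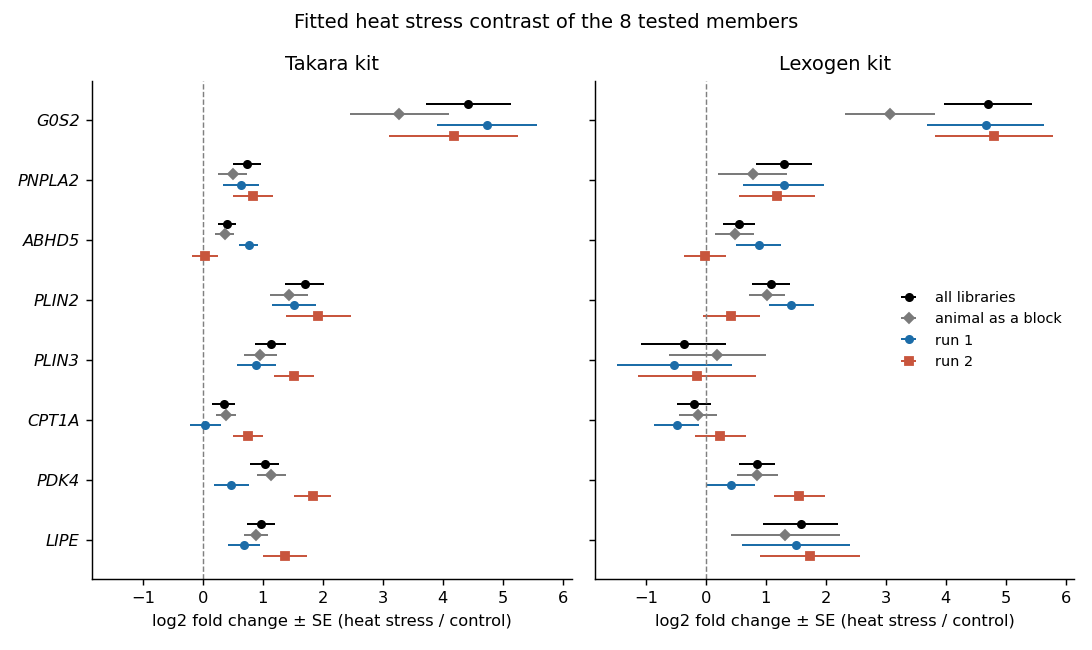
Fitted log2 fold change (heat stress over thermoneutral control) with its SE for the 8 tested members in Takara (left) and Lexogen (right), from all libraries, with the animal as a block, and within each run. The values of G0S2 lie between 3.07 and 4.80 in both panels, while ABHD5 lies at 0.76 in run 1 and 0.03 in run 2 of Takara and PDK4 at 0.47 and 1.83.

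Whether the difference between times itself depended on the run was tested as an interaction, which did not enter the choice of the members. No member passed the threshold in either kit by edgeR (2 had an unadjusted p under 0.05 in Takara and 0 in Lexogen), against 2.27% of 13767 genes called in Takara and 0.0222% of 13484 in Lexogen. In Takara, PDK4 was 1.34 higher on the log2 scale in its run 2 difference than in run 1 (SE 0.44, unadjusted p = 0.0054, adjusted p = 0.112 by edgeR), and ABHD5 was 0.77 lower (log2 difference -0.77, SE 0.25, unadjusted p = 0.0054, adjusted p = 0.112). The Lexogen values had the same signs, 1.16 (SE 0.57) for PDK4 and -0.91 (SE 0.53) for ABHD5, with adjusted p = 0.635 and 0.739 by edgeR. For G0S2 the interaction was -0.64 (SE 1.26) in Takara and 0.09 (SE 1.34) in Lexogen, so differences between runs of 1 log2 unit or more lay within its error.

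Levels before heat also differed between runs for some members. The same control libraries enter the interaction of run and time above, so the results are not independent of each other. In the Takara controls, where 8.13% of 12977 genes were called by edgeR in either direction, PLIN3 was lower in run 2 (log2 difference -0.73, SE 0.16, adjusted p = 0.0147) and ABHD5 higher in run 2 (0.58, SE 0.17, adjusted p = 0.0494). The 5 lowest PLIN3 control libraries were all of run 2. PDK4 was at -0.94 (SE 0.33) with an adjusted p of 0.0903 by edgeR and did not pass. In the Lexogen controls, 0 of 11844 genes were called and 1056 had an unadjusted p under 0.05.

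The control levels of the same RNA differed between kits for 6 of the 8 tested members, where edgeR called 64.2% of 12386 genes over the 12 control RNA samples read with both kits. Takara read more of LIPE (log2 difference 1.48, SE 0.42, adjusted p = 0.00521), PLIN3 (1.54, SE 0.55, adjusted p = 0.0215) and G0S2 (1.09, SE 0.43, adjusted p = 0.0338). Lexogen read more of PDK4 (-1.26, SE 0.24, adjusted p = 0.000229) and CPT1A (-0.56, SE 0.17, adjusted p = 0.0071), and of PLIN2 (-0.36, SE 0.15, adjusted p = 0.0442), which did not pass with DESeq2's size factors (adjusted p = 0.197). PNPLA2 (-0.11, SE 0.35) and ABHD5 (0.33, SE 0.24) did not pass, with adjusted p = 0.808 and 0.23 by edgeR. The share of members is near that of all genes, and is no result about the members.

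The difference between times was then compared between kits on the 24 RNA samples read with both. No gene of 13354 was called by edgeR, with 526 at an unadjusted p under 0.05. G0S2 had an interaction of -0.82 (SE 0.39, Takara minus Lexogen, unadjusted p = 0.0458, adjusted p = 1), the only member under 0.05 before adjustment. For PLIN3, with opposite signs in the kits, the interaction was 0.54 (SE 0.71, adjusted p = 1), so its error spanned both signs.

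Per animal, the changes in the 10 animals with both times in both kits had the same direction in both kits in 10 for LIPE, 8 for G0S2, PLIN2 and PDK4, 7 for PNPLA2, 6 for CPT1A, 5 for ABHD5 and 4 for PLIN3. No correlation is given for G0S2, whose changes fall into separate sets of animals. For the 7 other members, r between kits ranged from 0.21 (ABHD5) to 0.67 (PLIN2), and from -0.06 (CPT1A) to 0.72 (PNPLA2) without the 2 animals farthest from the median, so their order depended on those animals. These changes belong to the contrast the members were chosen from, and the values are a description.

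Neutrophil markers moved with G0S2. Their summed level ranged from 4932 to 21655 CPM (median 13056) in Takara controls and from 4722 to 112562 CPM (median 43697) in heat stress, and was higher in heat stress in 10 of 12 animals. In Lexogen it ranged from 1461 to 7545 CPM in controls and from 1945 to 33499 CPM in heat stress, and was higher in 9 of 12. The highest heat stress sums of each kit, 6 in Takara and 5 in Lexogen, were those of the animals with high G0S2. By edgeR, 8 of the 10 neutrophil markers tested rose in Takara, among them S100A8, S100A9, MMP9 and CXCR2, and 5 of 9 in Lexogen. CSF3R and FCGR3A were called in neither kit. The log2 fold change was above 0 for 9 of the 10 in Takara and 8 of the 9 in Lexogen. CAMP did not pass the filter in either kit. With the animal as a block 8 neutrophil markers rose in Takara and 0 in Lexogen. Of the other lists, 2 of 5 monocyte markers rose and 1 of 6 B cell markers fell in Takara. Of the 3 adipocyte markers tested there, CFD and PLIN1 were not called (adjusted p = 0.529 and 0.875 by edgeR). LIPE, also on that list, is a member chosen from this contrast, so its call is not counted for the list. In Takara, 0 of 3 platelet and 0 of 2 erythroid markers were called (0 of both at an unadjusted p under 0.05, 1 platelet marker by DESeq2). Of 8 T cell markers, 4 fell in Takara (CD3D, CD3E, CD3G and BCL11B) and 0 in Lexogen (1 at an unadjusted p under 0.05, 0 by DESeq2), and their sum was lower in 11 of 12 Takara animals.

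G0S2 and PLIN2 differed when set against the summed level of the neutrophil markers. Most of that sum came from S100A12, S100A8 and S100A9, at means of 18214, 4897 and 4178 CPM in Takara and 3651, 3202 and 1068 CPM in Lexogen. Per 1000 CPM of neutrophil markers, G0S2 had a median of 0.796 CPM (range 0.28 to 2.68) in Takara controls and of 1.59 CPM (range 0.567 to 7.87) in heat stress, and was higher in heat stress in 10 of 12 animals. The 6 animals with high G0S2 held 4.45 to 7.87 and the other 7 heat stress libraries 0.567 to 1.59, sets that were read from G0S2 itself and that stood closer than on CPM (390 against 49.6 at their nearest). In Lexogen the medians were 1.11 and 2.83 CPM, again with 10 of 12 animals higher, and the sets were nearest at 8.46 against 4.48, compared with 237 against 35.2 on CPM. PLIN2 per 1000 CPM had medians of 3.58 and 3.44 CPM in Takara and of 12.6 and 6.13 CPM in Lexogen, and was higher in heat stress in 5 and 2 of 12 animals. The adipocyte marker sum was higher in heat stress in 7 of 12 Takara animals and 10 of 12 Lexogen animals. That sum holds the member LIPE and is mostly CFD. Without LIPE, it was lower in heat stress in Lexogen animals 29 (control 191, heat stress 182 CPM) and 36 (169 and 161 CPM), which were higher with it. How far the makeup of the blood takes part in the levels of the members and of the pathway genes was not tested.

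**Figure D4:**
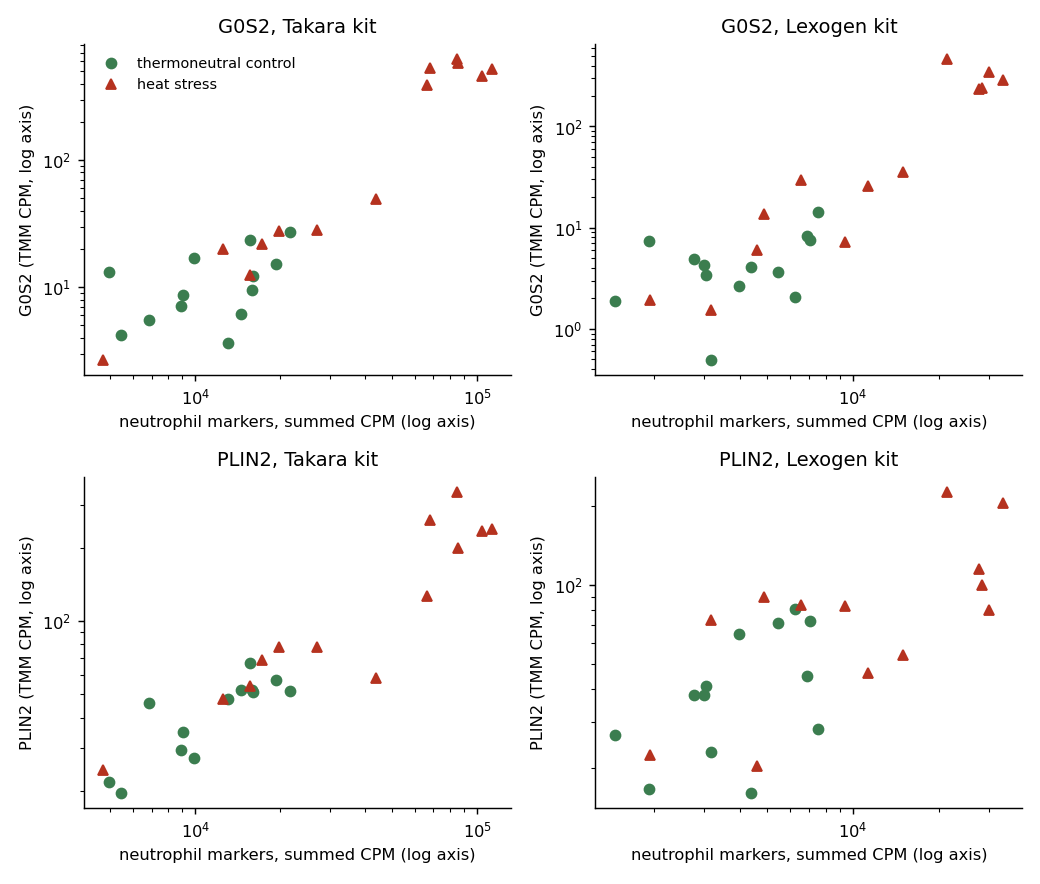
Level of G0S2 (top) and PLIN2 (bottom) in each library against the summed level of 11 neutrophil markers (both TMM CPM, log axes), in Takara (left) and Lexogen (right), with circles for thermoneutral control and triangles for heat stress. The 6 Takara heat stress libraries with the highest marker sums hold G0S2 at 390 to 625 CPM and PLIN2 at 127 to 337 CPM.

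The genes most like G0S2 over the 26 Takara libraries, among 12619 others kept by the filter, were MAX (r = 0.98), MLXIP, C5AR1, SSH2, TPMT and TGFA (r = 0.97 each), from log2 CPM. C5AR1 encodes the receptor for complement fragment C5a, and MAX and MLXIP encode transcription factors of the Myc and Mlx network. Over the 26 Lexogen libraries their r was 0.90, 0.88, 0.89, 0.85, 0.55 and 0.76. The libraries share time, animals and cell makeup, and the heat stress libraries fall into separate sets for G0S2, so the values are a description of that pattern and not of a graded relation. Of the members, PLIN2 was nearest in Takara (r = 0.91, rank 363), followed by PLIN3 (0.74), ABHD5 (0.73), LIPE (0.67), PNPLA2 (0.44), PDK4 (0.35) and CPT1A (0.21). Within time, Takara r was 0.86 for PLIN2, 0.63 for ABHD5, 0.58 for PLIN3, 0.48 for LIPE and 0.24 for PNPLA2. It was -0.14 for PDK4 and -0.03 for CPT1A. Over the Lexogen libraries r was 0.66 for PLIN2, 0.57 for ABHD5, 0.53 for PNPLA2, 0.32 for LIPE and 0.23 for PDK4. It was -0.02 for both PLIN3 and CPT1A there, and -0.11 for PDK4 within time.

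The other genes of the pathway were taken from 9 lists, with calls by edgeR at an adjusted p under 0.05 to be read against the Takara shares of 18.4% higher and 10.5% lower. Triacylglycerol and sterol ester synthesis held the most calls, with 8 of 11 tested genes higher and 0 lower in Takara, beside 8 of 10 neutrophil markers higher and 4 of 8 T cell markers lower, and a median log2 fold change of 0.59 against -0.05 for all genes. GPAT3, which starts glycerolipid synthesis, rose by 2.66 (SE 0.49) on the log2 scale, from 10.3 ± 5.89 to 65.8 ± 55.1 CPM (SD, n = 13 each, edgeR adjusted p = 0.000506). DGAT2, which adds the last fatty acid of triacylglycerol, rose by 2.10 (SE 0.44), from 466 ± 242 to 1995 ± 1595 CPM (edgeR adjusted p = 0.00117). Both also rose in Lexogen, by 2.28 (SE 0.56) and 2.12 (SE 0.41), where 3 of 10 genes were higher. With the animal as a block GPAT3 was at 1.53 in Lexogen, and 6 genes of the list were called in Takara and 0 in Lexogen, and with total counts as library size 4 and 2.

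Of the other droplet coat and assembly genes, 5 of 9 tested were higher in Takara. In Lexogen edgeR called 0 of 6 genes, with 1 lower at an unadjusted p under 0.05 and 1 lower by DESeq2. LDAF1, which helps seipin to form droplets, rose by 2.23 (SE 0.42) in Takara. In Lexogen LDAF1 was at 0.60 (SE 0.84), and at -0.34 with the animal as a block. CIDEC, which promotes the growth of droplets by fusion, rose by 1.83 (SE 0.47) in Takara. Its levels were low there, with means of 0.65 CPM in controls and 2.41 CPM in heat stress. HSD17B11, FITM1 and RAB18 rose in Takara as well. PLIN4, PLIN5, CIDEA, CIDEB, HSD17B13 and LDAH did not pass the filter. With the animal as a block 3 genes were called in Takara, and with total counts as library size 4 were higher and 1, the seipin gene BSCL2, lower. Of the other lipases and hydrolases, 2 of 9 were higher in Takara: DAGLB by 1.49 (SE 0.30) and MGLL, the monoacylglycerol lipase that ends the breakdown, by 1.46 (SE 0.47). The Takara means of MGLL were 1.01 CPM in controls and 2.92 CPM in heat stress. Neither CIDEC nor MGLL was called with the animal as a block. In Lexogen 1 of 8 was higher, DAGLB by 1.32 (SE 0.29), which was not called with the animal as a block (adjusted p = 0.0593).

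For the genes that burn or make fatty acids, the Takara calls from all libraries were in the lower direction. Of 17 tested genes of mitochondrial fatty acid oxidation, 0 were higher and 4 lower in Takara (HADH, ETFB, ECI2 and ECHS1), with ECI2 at -0.92 (SE 0.24) and ECHS1 at -0.51 (SE 0.18). With the animal as a block 2 of them were called and ECHS1 was not (adjusted p = 0.0555). Within run 1, 0 of the 17 genes were higher and 4 lower, and within run 2, 1 was higher and 0 lower. The list's median was -0.05, as for all genes. Of 9 genes of fatty acid synthesis, 3 were lower (ELOVL6, FASN and SCD), with SCD, the desaturase of stearate, at -0.94 (SE 0.24) and ELOVL6 at -0.61 (SE 0.17). In fatty acid uptake and activation only ACSL6 was called of 7 genes, higher by 1.65 (SE 0.36), and 1 gene was also lower with the animal as a block or with total counts as library size. In Lexogen edgeR called 0 genes of these 3 lists. There ACSL6 alone had an unadjusted p under 0.05 and was the only call of DESeq2, higher by both.

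Of the PPAR receptors, partners and other targets, 4 of 10 were higher in Takara, with TXNIP at 1.76 (SE 0.32) and PPARD at 0.74 (SE 0.23), and DESeq2 called 7 higher. With total counts as library size TXNIP alone was higher, and PPARGC1B was lower. In Lexogen 1 of 9 was higher, TXNIP at 1.48 (SE 0.29), which was also called with the animal as a block. Among the other kinases of pyruvate dehydrogenase, PDK3 rose by 1.64 (SE 0.31) in Takara and 1.49 (SE 0.42) in Lexogen. The Lexogen call was lost with the animal as a block (adjusted p = 0.343) and without the heat stress library of animal 15. The kinases PDK1 and PDK2 fell by 0.61 (SE 0.16) and 0.55 (SE 0.19) in Takara, together with PDPR, which left 1 higher and 3 lower of 11 genes of the pyruvate dehydrogenase list, and 1 and 2 with the animal as a block.

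Of the hypoxia-induced genes, 6 of 10 were higher in Takara and 3 of 9 in Lexogen, and 5 and 0 with the animal as a block. DDIT4 rose by 2.78 (SE 0.46) in Takara and 2.45 (SE 0.47) in Lexogen, and PFKFB3, which speeds up glycolysis, by 1.97 (SE 0.35) and 1.84 (SE 0.34). DDIT4 was at 2.06 and 1.52 and PFKFB3 at 1.49 and 1.21 with the animal as a block. HIF1A, BNIP3, PFKFB4 and P4HA1 were the other genes called in Takara, HIF1A not with total counts as library size. The member HILPDA, also induced by hypoxia, did not pass the filter. EPAS1, VEGFA and ADM did not pass the filter in either kit.

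**Figure D5:**
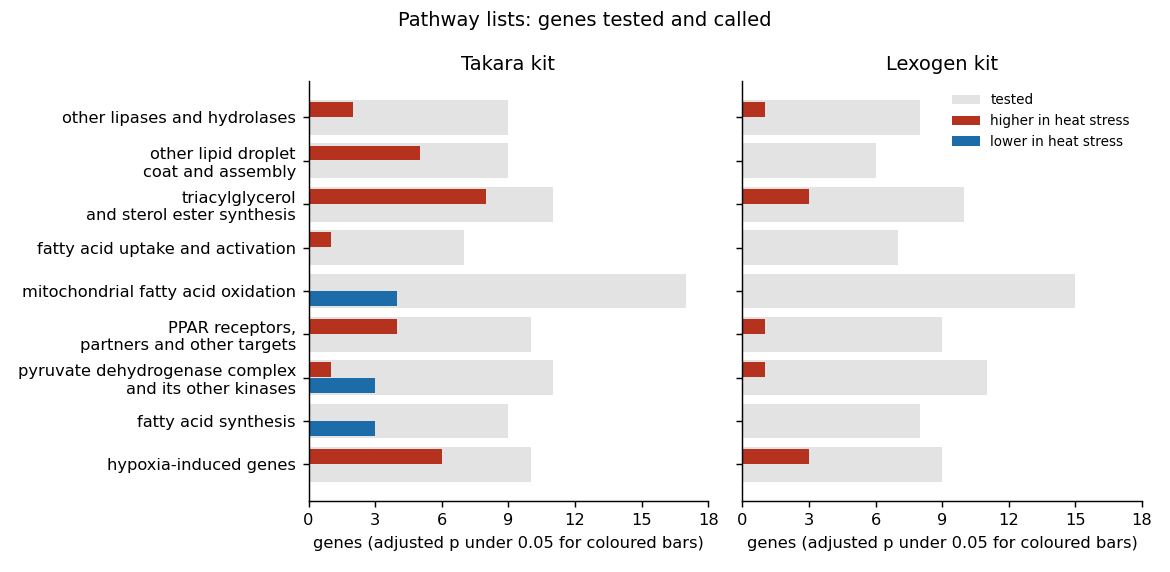
Number of genes of each pathway list that were tested (grey), higher (red) and lower (blue) in heat stress at an adjusted p under 0.05 in edgeR, in Takara (left) and Lexogen (right). In Takara triacylglycerol and sterol ester synthesis has 8 of 11 genes higher and mitochondrial fatty acid oxidation 4 of 17 lower.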

How the data were processed

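Whole blood RNA of calves at thermoneutral control and heat stress was read with 2 kits. The authors used Trimmomatic 0.39 on the forward reads and STAR 2.7.10b with the ARS-UCD2.0 genome, and deposited raw counts per gene in 3 strand columns below 4 rows of totals, which were left out (32.2% to 57.9% of filtered reads per library). The column they analysed is not named, so the unstranded counts were used here. Reads carry no molecular identifiers, so intervals and zero-count limits cover counting error only.

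Times were compared within each kit with edgeR 4.0.16 (R 4.3.3): filterByExpr, TMM, a quasi-likelihood test with time as the one term, and Benjamini-Hochberg adjustment over all genes, called at an adjusted p under 0.05. Runs, runs by time and, with the RNA sample as a block, kits and kits by time were tested likewise. Changes per animal used log2 CPM with a prior count of 2, and correlations between kits were tested with 100000 permutations (scipy 1.17.1), with counts of passes only in the closing section. The steps were tested on simulated counts.

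The members and gene lists were chosen with earlier results of these data known. Named genes were the members, of each list up to 2 genes per direction with the largest Takara change among calls (others are named only to say which genes a count holds), and the 6 genes most correlated with G0S2. Marker lists covered neutrophils, monocytes, T cells, B cells, platelets, erythroid cells and adipocytes. The animal is named in the labels and pairs the times. Deviations of an animal's libraries correlated above 0.1 in 11 of 12 pairs in Takara and 2 of 12 in Lexogen. The fit with the animal as a replicate block was an alternative, as were sense counts, filters, size factors, DESeq2 1.42.0, both times for animal 20 and fits within runs. Of the gene symbols, 30271 of 32637 were found in the RefSeq gene table of ARS-UCD2.0, the source of the positions.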

Additional observations from a re-analysis of the deposited data

Results flagged for a closer look

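The libraries of animal 20, left out because its sources gave different times, held several members above every thermoneutral control library, which is why they are listed here, and their time was not inferred from these levels. G0S2 was at 436 CPM in Takara and 253 CPM in Lexogen, against control maxima of 27.4 and 14.3 CPM. PLIN2 was at 358 and 109 CPM, LIPE at 58.7 and 23.1 CPM, ABHD5 at 74.3 and 39.2 CPM and PNPLA2 at 14.9 and 12.97 CPM in the same order, and PLIN3 at 56.1 CPM in Takara. In Takara, ABHD5, PLIN2 and LIPE were also above every heat stress library. CPT1A and PDK4 lay within the range of the control libraries in both kits.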

How the results depend on the processing

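The members kept the sign of their log2 fold change in all 11 alternatives in Takara, from 2.55 to 4.74 for G0S2. In Lexogen they did so in all 12 for G0S2, PNPLA2, PLIN2, PDK4 and LIPE, in 11 for ABHD5 and CPT1A and in 10 for PLIN3 (-0.52 to 0.68). The number of Lexogen genes called moved from 616 to 63 with the animal as a replicate block, 1006 with DESeq2, 3273 with every gene of at least 1 count, 402 within run 1, 0 within run 2 (1275 at an unadjusted p under 0.05) and 2 with animal 20 as a control. In the same order, the 2 members called higher moved to 0, 4, 3, 2, 0 and 0. Among every gene the third is ANGPTL4, on 7 reads in 1 library, and HILPDA was called lower, on 32 reads. The 2 members moved to 1 with total counts (437 of 11108 genes higher). They also moved to 1 without the heat stress library of animal 15 (403 of 11213 genes higher), where PLIN2 was not called. The Takara calls moved from 3646 to 931 within run 2 and 0 with animal 20 as a control (3804 unadjusted). The 7 members called there moved to 6 with every gene of at least 1 count (3604 of 24553 genes higher), where ABHD5 was not called. They moved to 5 with the block, total counts or run 2, 3 within run 1 and 0 with animal 20 as a control. The same animals without the block, an alternative chosen after seeing the data, gave 454 Lexogen calls, against 63 with the block. Calls of run by time moved from 312 to 177 with the block and 146 with every gene in Takara, and from 3 to 0 with every gene in Lexogen, and no member was called in any of them. The planned tests of correlation between the kits' changes gave 0 of 7 members and, with total counts, 1 by r (PDK4) and 0 by rho, and the report prints no p for them because the members were chosen from these changes. The planned correlations with the change of G0S2 are left out for the same reason. The cause of these moves was not tested. HILPDA and ANGPTL4 passed the filter on low counts in neither kit. The median SE of a log2 fold change was 0.42 in Lexogen and 0.18 in Takara, at medians of 9866690 and 11218000 reads on genes.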
